A study of Homo sapiens with 6 samples.

Results

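Antisense RNAs are transcribed from the strand opposite to that of a named gene, here called the partner, and carry the partner's symbol followed by -AS and a number. Many start beside the start of the partner and are made in the opposite direction from a shared promoter, whereas others begin near the 3′ end of the partner or inside it and run across its exons. Most are spliced noncoding RNAs of low abundance, some lie in the nucleus and are removed quickly by the nuclear RNA exosome, and a few, such as OIP5-AS1, a conserved RNA that binds miR-7, have been studied in tumors. RBM10 is an RNA-binding protein that controls splice site choice, and the study asked what its loss does in lung cancer cells that carry mutant EGFR.

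The members are the gene symbols that end in -AS and a digit and had 120 or more expected counts, summed over transcripts and over all 6 libraries. This rule took 209 of the 979 such symbols in the table of 26334 gene symbols, and 351 of the 979 had no count in any library. The members were thus chosen by their total count, so their abundance is a description. Just inside the threshold were CHKB-AS1, with 120 expected counts in all, and TOLLIP-AS1, with 122, and just outside it were NAPA-AS1, with 119, and ZSWIM8-AS1, with 118.83. A partner symbol was in the table for 207 of the 209 (204 distinct genes), and the partner was past the filter on low counts for 197. JHDM1D-AS1 and RPARP-AS1 had no partner symbol there.

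The libraries were made from PC-9, cells of a human lung adenocarcinoma that carry an EGFR deletion (del19) and intact RBM10. The line is grown in RPMI with serum, and neither the labels nor the RNA sequencing methods name a drug. The labels give 3 conditions with 2 libraries each, namely a scrambled shRNA (shScr), shRBM10#1 and shRBM10#2. In the methods the control is described as parental cells, but its labels read shScr, and the labels were followed. Nothing says whether the libraries of a condition came from separate cultures, so each p measures the spread between libraries, which may be technical, and a single cell line was used. Libraries held 31953729 to 37557507 expected counts. The mean fragment was 231.2 nt long in shScr replicate 2 and 264.8 to 281.2 nt in the others, and values without that library are given beside the main results that change with it. Summed TPM of EPCAM, KRT8, KRT18, KRT19 and CDH1 was 20195 to 25627 per library, and that of the lung lineage markers NKX2-1, NAPSA, SFTPB and SFTPC was 0.31 to 0.82, so epithelial markers were high and the lung lineage markers were close to 0. Among markers of other cells, PTPRC, CD3E, COL1A2 and PDGFRB were each at or below 0.11 TPM, whereas COL1A1 was at 1.99 to 2.88 TPM, CD68 at 76.83 to 116.49 TPM and CDH5 at 4.65 to 10.9 TPM.

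RBM10, the targeted gene, was at 83.2 and 86.2 CPM in shScr, 59.8 and 56.4 in shRBM10#1, and 27.2 and 26.9 in shRBM10#2 (CPM is the count scaled to library size after TMM). The 3 conditions did not overlap, and RBM10 was lower with shRBM10#1 (log2 FC -0.54 ± 0.067 (SE), edgeR FDR = 2.28e-04) and with shRBM10#2 (log2 FC -1.65 ± 0.07 (SE), edgeR FDR = 5.10e-08), and lower with the second shRNA than with the first (log2 FC -1.11 ± 0.07 (SE), edgeR FDR = 3.65e-06). With both shRNAs pooled into 1 group the log2 FC was -0.99 and the edgeR FDR was 0.146. All fold changes (FC) and false discovery rates (FDR) here come from edgeR's quasi-likelihood test over 14217 genes, and a gene is called at an FDR below 0.05.

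Of the 209 members, 203 could be placed with their partner in the GENCODE 29 annotation (GRCh38) or, in a few cases, by RefSeq span, all on opposite strands. In 134 pairs the genes are head-to-head, and in 116 of these the annotated starts lie within 1000 nt. A further 46 pairs are tail-to-tail, 17 antisense RNAs lie within the partner and 6 lie around it. Exons of the pair overlap in 99 cases and do not in 104. The median share of antisense exon bases that face partner exons was 13.1% where there was any, and in 10 pairs it was 50% or more. The library strand protocol is not given in the sources used here, and reads from exons that face each other cannot be told apart without it, so the counts of such pairs are uncertain. Among the 25 called members described by the naming rule, the share of facing bases was 100%, 94.4%, 69.9% and 57.7% for PCNA-AS1, CERS6-AS1, PITPNA-AS1 and AGAP2-AS1, 34.6% for MAPKAPK5-AS1, and 10.6% or less for the rest of the 25 that were placed. It was 66.7% for SMARCA5-AS1 and 22.0% for PRKAG2-AS1.

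Sequences are shown for the pairs on which the position classes bear most. PCNA-AS1 is a single exon of 384 nt at chr20:5119586-5119969 on the plus strand, and lies entirely inside an exon of PCNA of 449 nt (minus strand, GRCh38). Its first 213 bases face the PCNA coding sequence, and are shown 5′ to 3′ on the antisense strand from the GRCh38 genome, where the capitals at the end mark the complement of the PCNA start codon (chr20:5119586-5119798).
PCNA-AS1: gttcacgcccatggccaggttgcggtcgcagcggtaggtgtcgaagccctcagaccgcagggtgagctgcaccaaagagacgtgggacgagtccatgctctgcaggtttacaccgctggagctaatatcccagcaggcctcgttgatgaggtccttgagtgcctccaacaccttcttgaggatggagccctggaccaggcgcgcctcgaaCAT
For 5 members, the RefSeq start window (GRCh38.p14) is printed in lower case with the first 50 transcribed bases in capitals. That of OIP5-AS1 (chr15:41283740-41284039, plus strand) stands for a tail-to-tail RNA with a start of its own. The other 4 are head-to-head with the partner, and the lower case part is the whole stretch between the 2 RefSeq starts, which is 48 bases for ZNF674-AS1 (chrX:46545442-46545539, plus strand), 59 for NUP50-AS1 (chr22:45163732-45163840, minus strand), 193 for MNX1-AS1 (chr7:157010664-157010906, plus strand) and 143 for ZBED5-AS1 (chr11:10858074-10858266, plus strand). In each of these 4 the antisense RNA was called in a comparison and the partner that starts beside it was not. They were picked by hand, and other such head-to-head pairs, among them those of RALY-AS1 and THAP9-AS1, are not shown.
OIP5-AS1: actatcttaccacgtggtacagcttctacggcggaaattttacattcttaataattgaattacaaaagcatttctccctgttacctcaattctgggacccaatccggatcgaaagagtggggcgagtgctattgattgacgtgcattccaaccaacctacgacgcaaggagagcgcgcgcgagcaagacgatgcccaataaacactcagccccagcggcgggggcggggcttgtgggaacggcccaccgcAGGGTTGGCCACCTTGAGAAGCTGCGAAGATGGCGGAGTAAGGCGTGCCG
ZNF674-AS1: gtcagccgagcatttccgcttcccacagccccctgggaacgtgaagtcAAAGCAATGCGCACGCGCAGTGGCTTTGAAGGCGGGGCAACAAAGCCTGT
NUP50-AS1: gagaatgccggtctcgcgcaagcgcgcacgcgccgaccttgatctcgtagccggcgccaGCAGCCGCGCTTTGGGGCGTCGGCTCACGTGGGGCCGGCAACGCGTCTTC
MNX1-AS1: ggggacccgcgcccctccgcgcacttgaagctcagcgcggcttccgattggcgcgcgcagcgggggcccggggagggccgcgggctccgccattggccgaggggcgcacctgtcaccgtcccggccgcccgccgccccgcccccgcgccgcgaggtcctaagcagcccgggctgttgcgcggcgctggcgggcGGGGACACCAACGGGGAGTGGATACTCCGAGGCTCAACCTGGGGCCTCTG
ZBED5-AS1: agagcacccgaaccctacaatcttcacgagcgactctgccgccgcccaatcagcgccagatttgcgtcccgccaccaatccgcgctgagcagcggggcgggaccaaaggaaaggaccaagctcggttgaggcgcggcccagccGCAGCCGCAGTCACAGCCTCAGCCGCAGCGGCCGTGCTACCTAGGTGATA
None of these 5 holds TATAAA on either strand. CCAAT is found for OIP5-AS1, MNX1-AS1 and ZBED5-AS1, as is GGGCGG, and CGGAAG is found for MNX1-AS1. Windows of 300 bases were given for 156 members, among them neither FZD10-AS1 nor CERS6-AS1. Their median GC content was 67.2%, against 58.3% over all 27305 RefSeq windows, and the median ratio of observed to expected CpG was 0.82 against 0.58. TATAAA (the TATA box core, both strands) was in 3.8% of the members' windows and in 12% of all, CCAAT in 30.8% and 35.7%, CGGAAG (the ETS core) in 28.8% and 19.9%, and GGGCGG (the GC box) in 63.5% and 44.6%. Among the 92 windows of head-to-head members with starts within 1000 nt, CGGAAG was in 38%. These are matches of letters and no measure of binding. The RefSeq windows were taken whether or not the gene was expressed in PC-9, whereas the members were chosen by their counts. The part of expression in these differences was not tested.

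The members were far less abundant than their partners. Per length, the median member was at 1.99 TPM over the 6 libraries (quartiles 0.987 and 5.51), with 54 members under 1 TPM and 24 over 10 TPM, and the median partner was at 19.2 TPM. The log2 ratio of antisense to partner TPM had a median of -3.22 over the 197 pairs (quartiles -4.82 and -1.03), and the antisense RNA was above its partner in 34. Levels of antisense RNA and partner had a Spearman's rho of 0.028 across the 197 pairs, which share their libraries.

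LRRC75A-AS1, a host gene of small nucleolar RNAs that is also called SNHG29, was at 1125 TPM on average and held 30.0% of all member counts. Its CPM were 486 and 502 CPM in shScr, 484 and 497 in shRBM10#1, and 436 and 459 in shRBM10#2, and no comparison called it (edgeR FDR = 0.931, 0.112 and 0.142 for shRBM10#1 and shRBM10#2 against shScr and for shRBM10#2 against shRBM10#1). The next most abundant by TPM were PCNA-AS1 (260.4 TPM), PITPNA-AS1 (46.7 TPM), FGD5-AS1 (46.5 TPM) and FAM83H-AS1 (37.2 TPM). PCNA-AS1 is only 384 nt long, and PCNA-AS1 and PITPNA-AS1 face partner exons over most of their bases, so their levels are uncertain. By CPM, which is not per length, FGD5-AS1 and AFAP1-AS1 were above both. FAM83H-AS1 stayed at 63.0 and 61.7 CPM in shScr, 66.8 and 62.7 in shRBM10#1, and 59.2 and 60.9 in shRBM10#2, and FAM83H, with 338 nt between the genes, was called lower with shRBM10#2 (log2 FC -0.46 ± 0.077 (SE), edgeR FDR = 0.00142).

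**Figure D1:**
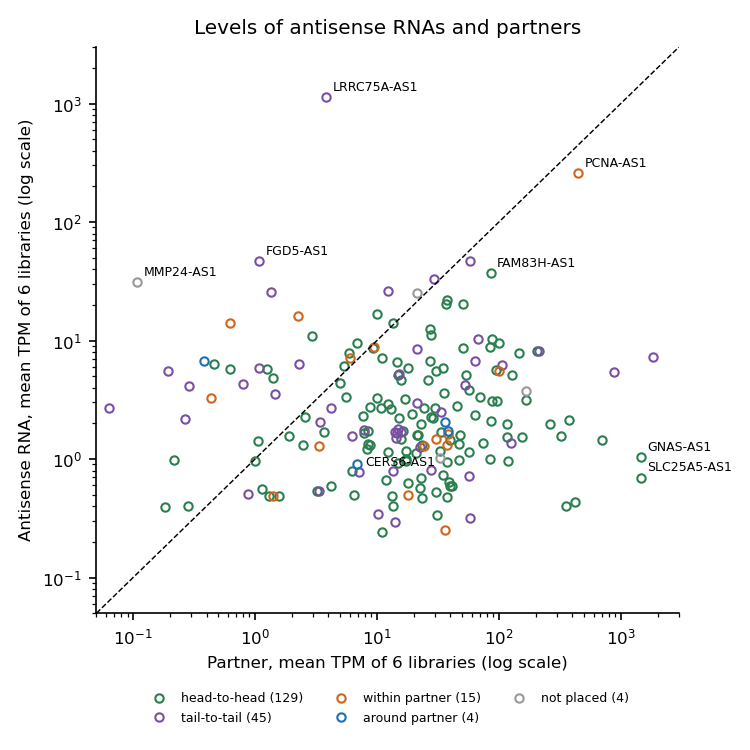
Mean TPM of each antisense RNA against mean TPM of its partner over the 6 libraries, both on log axes, for the 197 pairs with both genes past the filter, colored by position. Points below the dashed line of equal level are pairs with the partner higher. The antisense RNA is higher in 34.

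The ends of this range were far apart. MMP24-AS1 (mean log2 ratio 8.22), LRRC75A-AS1 (8.19) and FGD5-AS1 (5.67) were the farthest above their partners, a membrane-type matrix metalloproteinase, a leucine-rich repeat protein and a CDC42 exchange factor of endothelial cells, which were all low in PC-9 (0.108, 3.84 and 1.08 TPM). SLC25A5-AS1 (-11.08), GNAS-AS1 (-10.51) and PCBP1-AS1 (-9.94) were the farthest below theirs, the ADP/ATP carrier, the stimulatory G protein alpha subunit and a poly(rC)-binding protein, at 1467, 1472 and 418 TPM. None of these 3 low antisense RNAs was called in any comparison.

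The first comparisons ask whether knockdown with each shRNA moved the antisense RNAs. All 209 passed the filter on low counts. With shRBM10#1 against shScr, 2 members rose and 4 fell, that is 2.87% of the members, while 14.0% of all genes tested were called (7.13% higher and 6.91% lower). With shRBM10#2, 16 rose and 7 fell, or 11.0% of the members against 25.9% of all genes (12% higher and 13.9% lower). Between the shRNAs, 13 were higher and 6 lower with shRBM10#2, or 9.09% against 25.5% (11.0% higher and 14.5% lower). In the pooled comparison, which called 1.62% of all genes (0.542% higher), CERS6-AS1 alone was called, upward. The counts were not stable, and mostly fell when a library of a compared condition was left out. Such a fit leaves 1 library in that condition, so a call can be lost while its log2 FC hardly moves. For SBF2-AS1 between the shRNAs, the log2 FC stayed at 0.63 to 0.71, against 0.67 with all libraries, and the call was lost. An absolute log2 FC above 1 was the study's second criterion, which it set for isoforms. With it added here for gene sums, 3, 4 and 4 members were called in the 3 comparisons, where 1.88%, 1.3% and 1.19% of all genes were. Members have few counts (a median of 387 in all, against 5023 for all genes tested), and among the 2488 genes with 120 to 1000 counts in all the shares called were 10.5%, 11.0% and 10.1% in these 3 comparisons, while those of the 154 members in that range were 3.25%, 6.49% and 5.19%. The part of depth in the lower share was not tested. In all, 38 members were called in at least 1 of the 3 comparisons, or 18.2% of the members against 40.8% of all genes tested. They were 18 of the 134 head-to-head members, 13 of the 46 tail-to-tail, 3 of the 17 within the partner, 1 of the 6 around it and 3 of the 6 not placed.

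Relative to each member's own mean over the libraries, the median member lay slightly lower with shRBM10#1 and slightly higher with shRBM10#2. In the fit against shScr, the median log2 FC with shRBM10#2 was close to that of all genes (0.0091 and 0.0054). The summed level of the members, which rests on a few abundant ones, did not follow the median member. Their median log2 CPM, taken for each member relative to its own mean over the libraries, was 0.001 and 0.01 with shScr, -0.071 and -0.036 with shRBM10#1 and 0.068 and 0.071 with shRBM10#2, while that of all genes stayed within 0.004 of 0. The conditions did not overlap, and the steps were small. The summed TPM of all members was 2587 and 2517 in shScr, 2486 and 2368 in shRBM10#1 and 2058 and 2124 in shRBM10#2, lowest with shRBM10#2, and without LRRC75A-AS1 it was 1454 and 1163, 1352 and 1231, and 1094 and 1092. PCNA-AS1, whose counts are uncertain, held 501 and 159 TPM of these sums in shScr, 453 and 311 in shRBM10#1, and 74.5 and 63.2 in shRBM10#2. On the means, PCNA-AS1 fell with shRBM10#2 by more than the sum without LRRC75A-AS1 did. The other members together were thus not lower with shRBM10#2 than with shScr. The members' share of all counts was 0.153% to 0.162% in every library. In the fit, the median log2 FC of the members was -0.09 with shRBM10#1 (82 above 0 and 127 below), 0.01 with shRBM10#2 (110 above and 99 below) and 0.15 between the shRNAs, where 67.9% of members against 50.8% of all genes lay above 0. The median with shRBM10#1 ranged from -0.10 to -0.07 as each library was left out, and that with shRBM10#2 was 0.04 without shScr replicate 1 or shRBM10#2 replicate 1 and 0.07 without shScr replicate 2. Both shRNA comparisons share the shScr libraries, which lie in the denominator of each.

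**Figure D2:**
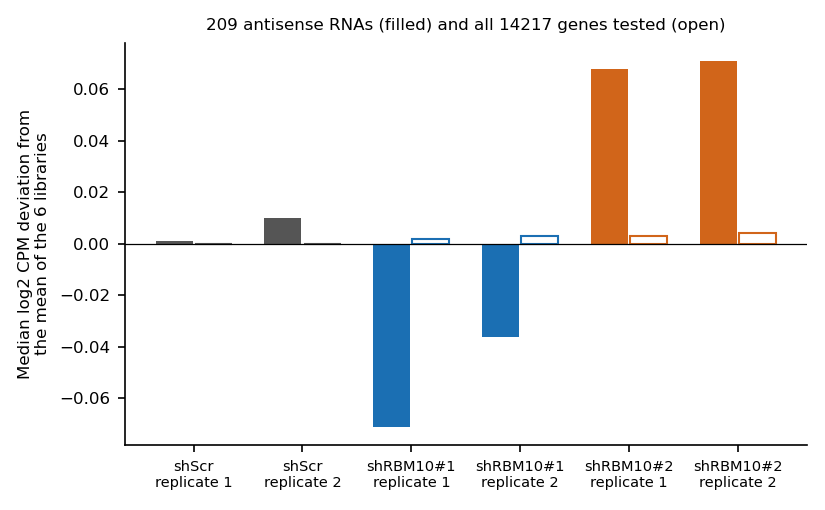
Median log2 CPM deviation from the mean of the 6 libraries, for the 209 antisense RNAs (filled bars) and all 14217 genes tested (open bars), by library and colored by condition. The filled bars lie below 0 in both shRBM10#1 libraries and above it in both shRBM10#2 libraries, at most 0.071 from 0.

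Among antisense RNAs that face partner exons, PCNA-AS1 and CERS6-AS1 had the largest changes. PCNA is the sliding clamp of DNA replication, and PCNA-AS1 was at 37.2 and 14.9 CPM in shScr, 35.0 and 24.9 in shRBM10#1, and 5.76 and 5.25 in shRBM10#2. Both shRBM10#2 libraries were below the other 4, and the shScr libraries stood apart from each other with both shRBM10#1 libraries between them. PCNA-AS1 fell with shRBM10#2 (log2 FC -2.24 ± 0.33 (SE), edgeR FDR = 7.32e-04, 0.212 of the shScr level) and was lower than with shRBM10#1 (log2 FC -2.44 ± 0.33 (SE), edgeR FDR = 4.48e-04), whereas shRBM10#1 against shScr was not called (log2 FC 0.20 ± 0.28 (SE), edgeR FDR = 0.695). Without shScr replicate 1 the log2 FC with shRBM10#2 was -1.43, still called, and that with shRBM10#1 was 1.01 (edgeR FDR = 0.0104), and without shScr replicate 2 the latter was -0.32 (edgeR FDR = 0.290). At a length of 384 nt, RSEM's effective length for PCNA-AS1 was 154.36 nt in shScr replicate 2 and 105.58 to 121.29 nt in the other 5, which moves with the fragment length of that library, and its part in the spread was not tested.

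PCNA itself was at 279.6 and 289 CPM in shScr, 274 and 300.4 in shRBM10#1, and 391 and 380.0 in shRBM10#2, higher in both shRBM10#2 libraries than in the other 4 (log2 FC 0.44 ± 0.067 (SE), edgeR FDR = 8.46e-04). The pair thus moved in opposite directions with shRBM10#2, and the log2 ratio of antisense to partner TPM was 0.39 and -1.46 with shScr, 0.26 and -0.37 with shRBM10#1, and -2.88 and -3.06 with shRBM10#2. Every base of PCNA-AS1 faces a PCNA exon, so how counts were split between them is uncertain. With the counts of both genes added, the sum rose with shRBM10#2 (log2 FC 0.33, edgeR FDR = 0.00288 against shScr, and 0.30, edgeR FDR = 0.00470 against shRBM10#1).

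CERS6-AS1 was low in shScr and higher with both shRNAs, with expected counts of 11.1 and 11.6 with shScr, 47.9 and 82.1 with shRBM10#1, and 88.5 and 59.3 with shRBM10#2. The shScr libraries did not overlap with the 4 others. It rose 5.33-fold with shRBM10#1 (log2 FC 2.42 ± 0.37 (SE), edgeR FDR = 0.00104) and 5.54-fold with shRBM10#2 (log2 FC 2.47 ± 0.37 (SE), edgeR FDR = 8.07e-04), 2 comparisons that share the shScr libraries, and the shRNAs did not differ by the test (log2 FC 0.06 ± 0.29 (SE), edgeR FDR = 0.908). Both calls held with any library left out, whereas the pooled call (log2 FC 2.44, edgeR FDR = 0.0195) was lost without shScr replicate 1 (2.39) or shScr replicate 2 (2.5). All counts were given to the isoform NR_045787, and none to NR_045786. CERS6, a ceramide synthase, was at 29.4 and 34.0 CPM in shScr, 30.4 and 29.4 in shRBM10#1, and 31.7 and 34.1 in shRBM10#2 and was not called (edgeR FDR = 0.547 and 0.694). In the annotation 94.4% of the exon bases of CERS6-AS1 face CERS6 exons, so reads of CERS6 could be counted there or the reverse, which was not tested.

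**Figure D3:**
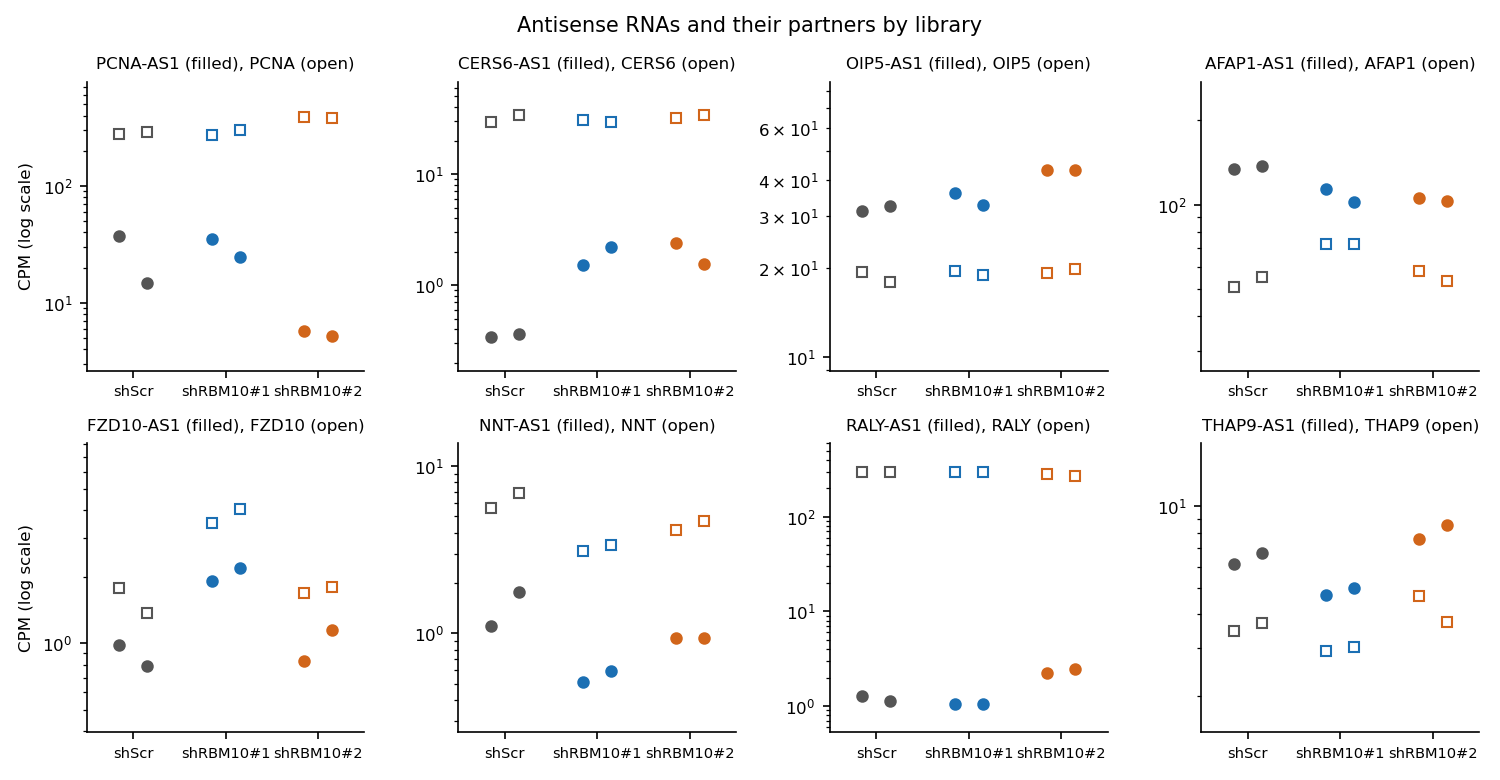
CPM of 8 antisense RNAs (filled circles) and their partners (open squares) in each library, on a log axis, with 2 libraries per condition. PCNA-AS1 is lowest with shRBM10#2 while PCNA is highest there, CERS6-AS1 is lowest in shScr, and FZD10-AS1 and NNT-AS1 move with their partners.

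PITPNA-AS1 and AGAP2-AS1 also face partner exons over most of their exon bases. PITPNA-AS1 was at 8.56 and 6.99 CPM in shScr, 7.29 and 9.01 in shRBM10#1, and 11.2 and 11.7 in shRBM10#2, and rose with shRBM10#2 (log2 FC 0.56 ± 0.13 (SE), edgeR FDR = 0.0101). This call was lost without shScr replicate 2 (0.42) or without either shRBM10#2 library (0.59 and 0.53). PITPNA, a phosphatidylinositol transfer protein, had a log2 FC of -0.00 there (edgeR FDR = 0.971). AGAP2-AS1 was at 12.2 and 10.1 CPM in shScr, 14.2 and 15.0 in shRBM10#1, and 9.53 and 11.6 in shRBM10#2 and was lower with shRBM10#2 than with shRBM10#1 (log2 FC -0.46 ± 0.12 (SE), edgeR FDR = 0.0165), as was AGAP2, an Arf GTPase-activating protein (log2 FC -0.78 ± 0.26 (SE), edgeR FDR = 0.0409). The AGAP2-AS1 call was lost without shRBM10#1 replicate 2 (-0.42) or shRBM10#2 replicate 1 (-0.32).

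Among antisense RNAs that have been studied in cancer cells, a list of 32 of which 20 are members and 25 were tested, 3 fell with shRBM10#1, 3 rose and 3 fell with shRBM10#2, and 3 were higher with shRBM10#2 than with shRBM10#1. Of all genes, 14.0%, 25.9% and 25.5% were called in these comparisons. The median log2 FC of the 25 was -0.08, 0.01 and 0.21, and that of all genes was 0.01 in each. The 3 that fell with shRBM10#1 were AFAP1-AS1, NNT-AS1 and GAS6-AS2, which is not a member.

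OIP5-AS1, also known as Cyrano, was at 31.4 and 32.6 CPM in shScr, 36.1 and 32.8 in shRBM10#1, and 43.0 and 43.1 in shRBM10#2. Both shRBM10#2 libraries were above the other 4, and the other 2 conditions did not differ by the test (edgeR FDR = 0.391). It rose with shRBM10#2 against shScr (log2 FC 0.43 ± 0.074 (SE), edgeR FDR = 0.00179) and against shRBM10#1 (log2 FC 0.32 ± 0.074 (SE), edgeR FDR = 0.00759). The first call held with any library left out, and the second was lost without either shRBM10#2 library (0.32 and 0.33). OIP5, a subunit of the Mis18 complex that loads centromeric histone, was at 19.5 and 17.9 CPM in shScr, 19.5 and 19.0 in shRBM10#1, and 19.3 and 19.9 in shRBM10#2 and was not called. The exons of the pair do not overlap and the genes are 2733 nt apart.

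AFAP1-AS1 was at 134 and 138 CPM in shScr, 114 and 103 in shRBM10#1, and 106 and 103 in shRBM10#2, and the 4 knockdown libraries lay below both shScr libraries. It fell with shRBM10#1 (log2 FC -0.33 ± 0.068 (SE), edgeR FDR = 0.00602) and with shRBM10#2 (log2 FC -0.38 ± 0.068 (SE), edgeR FDR = 0.00197), comparisons that share the shScr libraries, and the log2 FC between the shRNAs was -0.05 ± 0.068 (SE). Each call held with any library left out. AFAP1, an adaptor of actin filaments, was at 50.9 and 55.0 CPM in shScr, 72.6 and 72.4 in shRBM10#1, and 57.9 and 53.4 in shRBM10#2, and rose with shRBM10#1 (log2 FC 0.45 ± 0.072 (SE), edgeR FDR = 0.00123) but was not called with shRBM10#2 (edgeR FDR = 0.506). AFAP1 was lower with shRBM10#2 than with shRBM10#1 (log2 FC -0.38 ± 0.071 (SE), edgeR FDR = 0.00268). The antisense RNA was above its partner in every library, with log2 TPM ratios of 1.55 and 1.48 with shScr, 0.80 and 0.65 with shRBM10#1, and 1.02 and 1.10 with shRBM10#2, and 6.9% of its exon bases face AFAP1 exons.

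Of the others on this list, FGD5-AS1, TP73-AS1, MAPKAPK5-AS1 and MNX1-AS1 were called with shRBM10#2. FGD5-AS1 was at 102 and 104 CPM in shScr, 102 and 116 in shRBM10#1, and 123 and 119 in shRBM10#2 and rose slightly (log2 FC 0.23 ± 0.07 (SE), edgeR FDR = 0.0282), a call lost without any of the shScr libraries (0.22 and 0.24) or the shRBM10#2 libraries (0.21 and 0.26). Its partner FGD5 was at 1.76 and 2.01 CPM in shScr, 6.65 and 8.82 in shRBM10#1, and 2.75 and 3.11 in shRBM10#2, and rose with shRBM10#1 (log2 FC 2.04 ± 0.19 (SE), edgeR FDR = 3.80e-05) and with shRBM10#2 (log2 FC 0.64 ± 0.21 (SE), edgeR FDR = 0.0380). FGD5-AS1 was not called with shRBM10#1 (log2 FC 0.08 ± 0.07 (SE), edgeR FDR = 0.485), and the difference between the pair was not tested. TP73-AS1, whose partner encodes the p53 relative p73, was at 2.83 and 2.22 CPM in shScr, 1.63 and 1.57 in shRBM10#1, and 1.16 and 1.41 in shRBM10#2, highest in shScr, and fell with shRBM10#2 (log2 FC -0.97 ± 0.24 (SE), edgeR FDR = 0.0116), while TP73 was not called in any comparison. The call was lost without shScr replicate 1 (-0.79) or either shRBM10#2 library (-0.84 and -1.12). MAPKAPK5-AS1 was at 18.9 and 18.4 CPM in shScr, 17.5 and 17.7 in shRBM10#1, and 14.7 and 15.7 in shRBM10#2 and fell with shRBM10#2 (log2 FC -0.29 ± 0.088 (SE), edgeR FDR = 0.0280), a call lost without either shScr library (-0.27 and -0.31) or either shRBM10#2 library (-0.24 and -0.34), and its partner, a protein kinase, was not called.

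Many called members start beside their partner, and the next are ordered by what the partner did. FZD10, a Frizzled receptor for Wnt, and FZD10-AS1, with 780 nt between the genes and no exon overlap, moved together. FZD10-AS1 was at 0.986 and 0.790 CPM in shScr, 1.92 and 2.20 in shRBM10#1, and 0.835 and 1.15 in shRBM10#2, with both shRBM10#1 libraries above the others, and FZD10 was at 1.79 and 1.37 CPM in shScr, 3.52 and 4.04 in shRBM10#1, and 1.70 and 1.80 in shRBM10#2, with the same order. With shRBM10#1, FZD10-AS1 rose (log2 FC 1.21 ± 0.29 (SE), edgeR FDR = 0.0147) and so did FZD10 (log2 FC 1.26 ± 0.21 (SE), edgeR FDR = 0.00196), and with shRBM10#2 neither was called (log2 FC 0.16 and 0.15). The log2 TPM ratio of the pair stayed between -1.21 and -0.83 in all libraries. The FZD10-AS1 call with shRBM10#1 was lost without shScr replicate 2 (1.06) or shRBM10#1 replicate 2 (1.11). Between the shRNAs both genes were lower with shRBM10#2 (log2 FC -1.05, edgeR FDR = 0.0159, and -1.11, edgeR FDR = 0.00263), and the FZD10-AS1 call there was lost without shRBM10#1 replicate 2 (-0.95) or either shRBM10#2 library (-0.84 and -1.29).

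NNT, the mitochondrial transhydrogenase that makes NADPH, and NNT-AS1 also moved together. NNT-AS1 was at 1.11 and 1.76 CPM in shScr, 0.511 and 0.597 in shRBM10#1, and 0.942 and 0.940 in shRBM10#2, and NNT at 5.57 and 6.87 CPM in shScr, 3.10 and 3.37 in shRBM10#1, and 4.15 and 4.72 in shRBM10#2. In both genes the shScr libraries were highest and the shRBM10#1 libraries lowest, although NNT-AS1 in shScr replicate 1 was only a little above shRBM10#2. NNT-AS1 fell with shRBM10#1 (log2 FC -1.36 ± 0.35 (SE), edgeR FDR = 0.0203), as did NNT (log2 FC -0.94 ± 0.16 (SE), edgeR FDR = 0.00236). With shRBM10#2, NNT fell (log2 FC -0.49 ± 0.16 (SE), edgeR FDR = 0.0379) and NNT-AS1 had a log2 FC of -0.61 ± 0.32 (SE) that was not called. The NNT-AS1 call was lost without shScr replicate 2 (-0.99) or either shRBM10#1 library (-1.26 and -1.48), and 2.4% of its exon bases face NNT exons.

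FBXL19-AS1 went with FBXL19, an F-box protein that binds CpG islands. It was at 4.96 and 5.29 CPM in shScr, 5.59 and 5.62 in shRBM10#1, and 3.82 and 4.15 in shRBM10#2 and lower with shRBM10#2 than with shRBM10#1 (log2 FC -0.49 ± 0.14 (SE), edgeR FDR = 0.0242), as was FBXL19 (log2 FC -0.50 ± 0.084 (SE), edgeR FDR = 0.00135). The call of the antisense RNA was lost without either shRBM10#1 library (-0.50 and -0.49) or either shRBM10#2 library (-0.43 and -0.55).

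In other head-to-head pairs the antisense RNA was called and the partner was not. RALY-AS1, beside an RNA-binding protein of the hnRNP family, was at 1.29 and 1.12 CPM in shScr, 1.05 and 1.06 in shRBM10#1, and 2.23 and 2.48 in shRBM10#2, while RALY was at 300.2 and 295 CPM in shScr, 300.4 and 300.0 in shRBM10#1, and 283 and 272 in shRBM10#2. Both shRBM10#2 libraries were above the other 4. RALY-AS1 rose with shRBM10#2 against shScr (log2 FC 0.96 ± 0.24 (SE), edgeR FDR = 0.0124) and against shRBM10#1 (log2 FC 1.16 ± 0.25 (SE), edgeR FDR = 0.00514), and RALY was not called (log2 FC -0.10 and -0.12). The first call was lost without shScr replicate 2 (0.86) or either shRBM10#2 library (1.03 and 0.89), and the second without shRBM10#2 replicate 2 (1.08).

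THAP9-AS1, whose partner is a domesticated DNA transposase, was at 6.13 and 6.74 CPM in shScr, 4.70 and 5.02 in shRBM10#1, and 7.59 and 8.56 in shRBM10#2, lowest with shRBM10#1 and highest with shRBM10#2 with no overlap between conditions. Against shScr neither shRNA was called (log2 FC -0.40, edgeR FDR = 0.0692, and 0.33, edgeR FDR = 0.0814), whereas between the shRNAs it was higher with shRBM10#2 (log2 FC 0.73 ± 0.13 (SE), edgeR FDR = 0.00229) with any library left out. THAP9 had log2 FC in the same directions (-0.26 and 0.23) without a call.

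In the head-to-head pairs with printed start regions the antisense RNA was called and the partner was not. ZNF674-AS1 was at 1.39 and 1.55 CPM in shScr, 0.735 and 0.733 in shRBM10#1, and 1.59 and 1.28 in shRBM10#2, with both shRBM10#1 libraries below the others. It fell with shRBM10#1 (log2 FC -1.0 ± 0.30 (SE), edgeR FDR = 0.0417) and was higher with shRBM10#2 than with shRBM10#1 (log2 FC 0.96 ± 0.29 (SE), edgeR FDR = 0.0302), and ZNF674, a zinc finger gene, had log2 FC of -0.32 and 0.51, not called. Its call with shRBM10#1 did not hold with any library left out (log2 FC from -1.07 to -0.91), and that between the shRNAs was lost without any shRBM10#1 or shRBM10#2 library (0.80 to 1.12). NUP50-AS1, beside a nucleoporin gene, was at 2.09 and 1.82 CPM in shScr, 1.47 and 1.38 in shRBM10#1, and 2.42 and 2.32 in shRBM10#2 and was higher with shRBM10#2 than with shRBM10#1 (log2 FC 0.73 ± 0.22 (SE), edgeR FDR = 0.0286), a call lost without any of these 4 libraries (0.69 to 0.77).

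MNX1-AS1, beside a homeobox gene, was at 3.36 and 2.22 CPM in shScr, 4.16 and 4.15 in shRBM10#1, and 4.04 and 5.09 in shRBM10#2, and both shScr libraries were below the other 4. It rose with shRBM10#2 (log2 FC 0.71 ± 0.20 (SE), edgeR FDR = 0.0231) and was not called with shRBM10#1 (log2 FC 0.58 ± 0.21 (SE), edgeR FDR = 0.0876), and MNX1 was not called. The call was lost without shScr replicate 2 (0.44) or shRBM10#2 replicate 2 (0.54). ZBED5-AS1 was at 7.61 and 6.38 CPM in shScr, 6.62 and 8.25 in shRBM10#1, and 9.40 and 10.1 in shRBM10#2 and rose with shRBM10#2 (log2 FC 0.48 ± 0.14 (SE), edgeR FDR = 0.0237), a call lost without shScr replicate 2 (0.35) or either shRBM10#2 library (0.52 and 0.43). ZBED5, which derives from a transposon, had a log2 FC of 0.02.

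Other named members lie at the other end of the partner or were not placed. TTC28-AS1 was at 4.37 and 4.19 CPM in shScr, 4.60 and 4.45 in shRBM10#1, and 6.11 and 7.36 in shRBM10#2, with both shRBM10#2 libraries highest, and rose with shRBM10#2 (log2 FC 0.65 ± 0.15 (SE), edgeR FDR = 0.00720) to a level above that with shRBM10#1 (log2 FC 0.57 ± 0.15 (SE), edgeR FDR = 0.0128). Both calls were lost without shRBM10#2 replicate 2 (0.52 and 0.44), and TTC28 was not called. HNRNPU-AS1, named for a nuclear scaffold protein that binds RNA, was at 9.52 and 11.3 CPM in shScr, 12.4 and 9.58 in shRBM10#1, and 15.9 and 14.3 in shRBM10#2 and rose with shRBM10#2 (log2 FC 0.54 ± 0.13 (SE), edgeR FDR = 0.0115), a call lost without shScr replicate 1 (0.42) or shRBM10#2 replicate 1 (0.46). HNRNPU stayed at 699 to 786 CPM.

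Between the shRNAs, 4 more were called without a call against shScr. TMEM44-AS1 was at 1.88 and 1.12 CPM in shScr, 0.607 and 1.00 in shRBM10#1, and 2.07 and 1.72 in shRBM10#2 and was higher with shRBM10#2 (log2 FC 1.21 ± 0.33 (SE), edgeR FDR = 0.0181), and the call was lost without shRBM10#1 replicate 1 (0.91) or either shRBM10#2 library (1.08 and 1.35). FBXO22-AS1, named for a subunit of a ubiquitin ligase, was at 2.68 and 3.71 CPM in shScr, 1.82 and 2.50 in shRBM10#1, and 4.50 and 3.29 in shRBM10#2 and was higher with shRBM10#2 (log2 FC 0.84 ± 0.23 (SE), edgeR FDR = 0.0201), and the call was lost without the first library of either shRNA (0.64 and 0.60). SBF2-AS1 was at 2.96 and 2.49 CPM in shScr, 1.98 and 1.93 in shRBM10#1, and 3.18 and 3.03 in shRBM10#2, and both shRBM10#1 libraries were below the others (log2 FC 0.67 ± 0.20 (SE), edgeR FDR = 0.0256), a call lost without any library of the 2 shRNAs (0.63 to 0.71). MMP24-AS1 was at 35.4 and 27.9 CPM in shScr, 31.4 and 37.9 in shRBM10#1, and 25.8 and 26.5 in shRBM10#2 and lower with shRBM10#2 (log2 FC -0.41 ± 0.11 (SE), edgeR FDR = 0.0184), a call lost without shRBM10#1 replicate 2 (-0.26) or either shRBM10#2 library (-0.39 and -0.42).

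EP300-AS1 moved against EP300, a histone acetyltransferase. It was at 0.739 and 0.972 CPM in shScr, 1.05 and 1.28 in shRBM10#1, and 1.78 and 1.72 in shRBM10#2, and EP300 was at 87.9 and 91.1 CPM in shScr, 85.6 and 85.0 in shRBM10#1, and 80.7 and 74.5 in shRBM10#2, so that both shRBM10#2 libraries were highest for the antisense RNA and lowest for the partner. With shRBM10#2, EP300-AS1 rose (log2 FC 1.03 ± 0.29 (SE), edgeR FDR = 0.0199) and EP300 fell (log2 FC -0.21 ± 0.066 (SE), edgeR FDR = 0.0373). The EP300-AS1 call was lost without shScr replicate 1 (0.85) or either shRBM10#2 library (1.01 and 1.05), and no exons of the pair overlap.

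**Figure D4:**
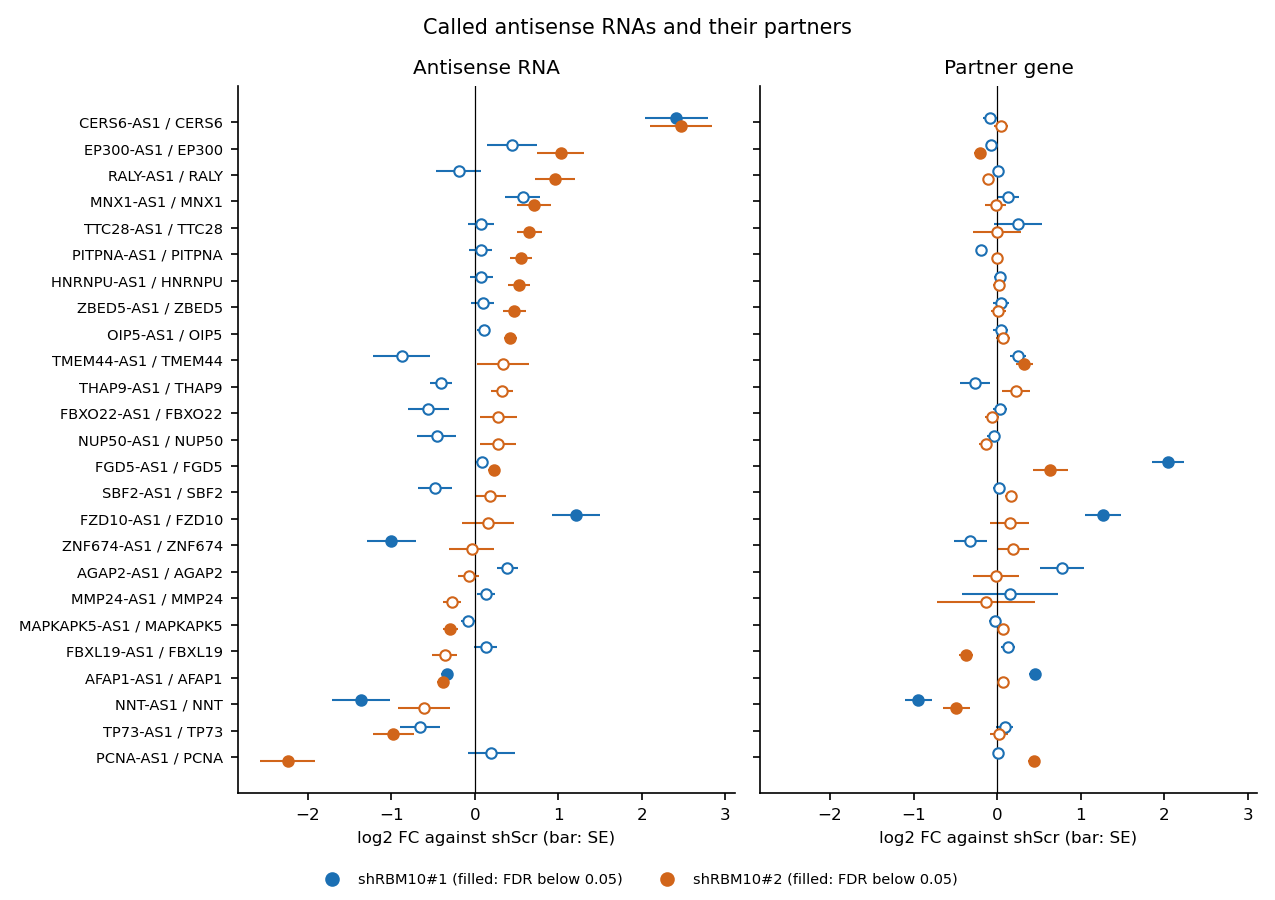
Log2 FC against shScr with shRBM10#1 (blue) and shRBM10#2 (orange) for the 25 named antisense RNAs that were called in any comparison (left) and their partners (right), with bars of 1 SE and filled points where the edgeR FDR is below 0.05. PCNA-AS1 and CERS6-AS1 lie farthest from 0, and most partners lie close to it.

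The other 13 called members follow as counts, and those named here were chosen after their values were seen. With shRBM10#2, 6 of them rose and 3 fell, with absolute log2 FC of 0.31 to 1.16, led by SMARCA5-AS1 (1.16), named for a chromatin remodeler, PRKAG2-AS1 (0.91), named for a subunit of AMP-activated kinase, and HMGN3-AS1 (-0.99). These 3 calls were lost without single libraries, shScr ones among them, at log2 FC of 0.68 to 1.29, 0.54 to 0.95 and -1.28 to -0.75. NOP14-AS1 fell with shRBM10#1 (log2 FC -0.81 ± 0.24 (SE), edgeR FDR = 0.0443), and its call did not hold with any library left out (-1.03 to -0.63). EMC3-AS1 and MCM3AP-AS1 were higher and NCBP2-AS2 lower with shRBM10#2 than with shRBM10#1. Over the members called in each comparison, 2 of 6, 4 of 23 and 2 of 19 calls held with each library left out in turn, which were AFAP1-AS1 and CERS6-AS1 with shRBM10#1, these and OIP5-AS1 and PCNA-AS1 with shRBM10#2, and PCNA-AS1 and THAP9-AS1 between the shRNAs.

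The next question is whether an antisense RNA and its partner moved together. Over the 197 pairs with both genes tested, the log2 FC had the same sign in 115 pairs (58.4%) with shRBM10#1, in 113 (57.4%) with shRBM10#2 and in 99 (50.3%) between the shRNAs. Pearson's r across pairs was 0.307, 0.1 and 0.171, and Spearman's rho 0.277, 0.175 and 0.124. With shRBM10#1 the same sign was found in 96 pairs without shScr replicate 2 and in 104 without shRBM10#1 replicate 2, so the excess over equal shares rested on shScr replicate 2. Over all libraries left out in turn, the count was 103 to 115 with shRBM10#2 and 91 to 104 between the shRNAs. Both genes of a pair are read from the same libraries, so these values are a description.

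The same values are given by position. For the 113 head-to-head pairs with starts within 1000 nt, the same sign was found in 73, 65 and 63 pairs. Pearson's r was 0.513, 0.205 and 0.348 there, and Spearman's rho 0.411, 0.188 and 0.168. In the 73 of these with no exon overlap, r was 0.545, 0.260 and 0.293, and rho 0.425, 0.262 and 0.096. For the 45 tail-to-tail pairs tested r was 0.114, 0.155 and 0.175, and rho 0.130, 0.242 and 0.077. By rho, the tail-to-tail pairs were thus above the 113 head-to-head pairs with shRBM10#2. No test was made of the difference between position classes.

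**Figure D5:**
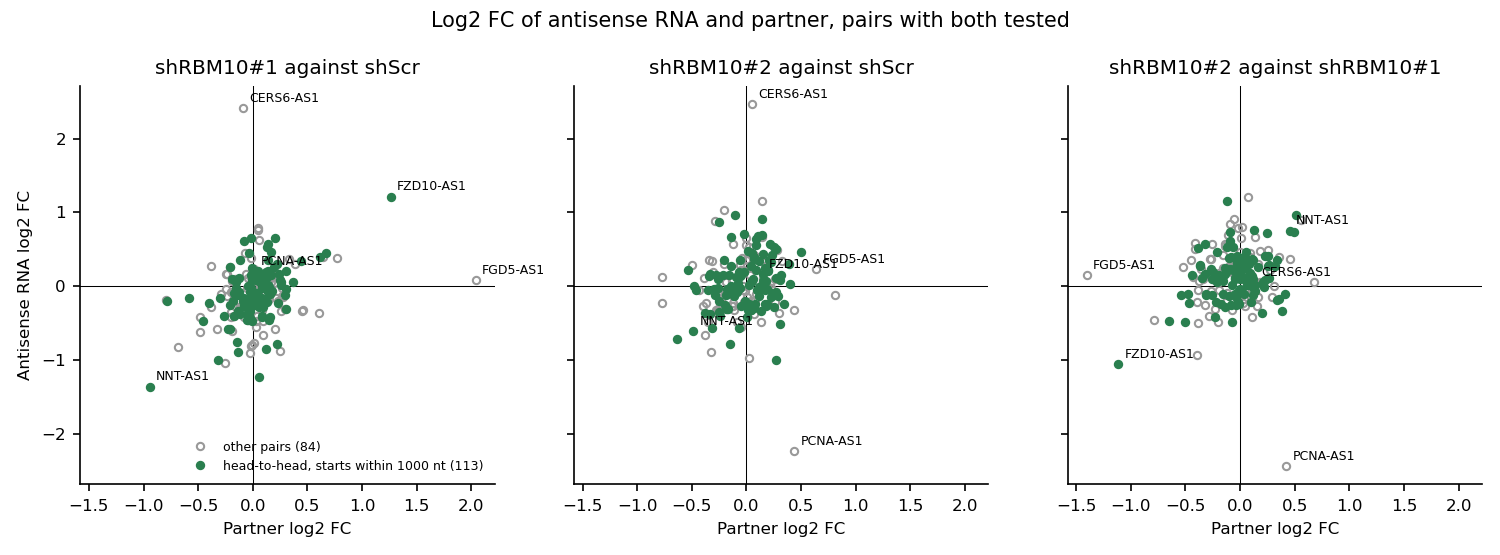
Log2 FC of the antisense RNA (vertical) against that of its partner (horizontal) in each comparison, for 113 head-to-head pairs with starts within 1000 nt (filled green) and the 84 other pairs (open gray). With shRBM10#1 the pairs of FZD10 and NNT have like values on both axes, whereas CERS6-AS1 at 2.42 (shRBM10#1) and PCNA-AS1 at -2.24 (shRBM10#2) lie far from partners that moved by 0.44 or less.

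Both genes of a pair were seldom called. With shRBM10#1, 27 of the 197 partners were called (13.7%), and in 3 pairs both genes were, namely FZD10 and NNT in the same direction and AFAP1 in the opposite one. With shRBM10#2, 56 partners were called (28.4%), and in 4 pairs both genes were, ARRDC1 and FGD5 in the same direction and EP300 and PCNA in the opposite one. Between the shRNAs 53 partners were called (26.9%), and both genes were in 6 pairs. Of these, AGAP2, FBXL19, FZD10 and PITPNA had the sign of the antisense RNA, and NCBP2 and PCNA did not. These shares stood beside 14.0%, 25.9% and 25.5% of all genes.

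The antisense share of a pair was compared by the log2 ratio of TPM in each library. Against shScr the median ratio differed by -0.122 with shRBM10#1 (70 pairs above and 127 below) and by 0.034 with shRBM10#2 (107 above and 90 below). The first value was -0.046 without shScr replicate 1, -0.052 without shRBM10#1 replicate 1 and -0.164 without shRBM10#1 replicate 2, against -0.130 without shScr replicate 2. The second was 0.088 without shScr replicate 1 and 0.077 without shRBM10#2 replicate 1. With 2 libraries per condition, an exact permutation test of a ratio cannot reach a p of 0.05, and none was made.

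Lastly, the genes that act on such RNAs were examined. Of 20 genes of the nuclear RNA exosome and its adaptors, which remove many antisense and promoter-upstream RNAs, 1 rose with shRBM10#1, 3 rose and 2 fell with shRBM10#2, and 4 were higher and 2 lower with shRBM10#2 than with shRBM10#1, while 14.0%, 25.9% and 25.5% of all genes were called. The ring subunits EXOSC8 and EXOSC9 rose with shRBM10#2 (log2 FC 0.38 and 0.26), EXOSC4 and EXOSC7 fell (-0.33 and -0.23), and the RNA-tailing polymerase PAPD5 rose (0.30). The median log2 FC of the list was 0.04, 0.09 and 0.00, close to that of all genes (0.01 in each comparison). Among 14 genes for enzymes and sensors of double-stranded RNA, 2 rose with shRBM10#1. With shRBM10#2, 1 rose, some fell and most were not called. Of all genes, 14.0% and 25.9% were called in these 2 comparisons. The median log2 FC of this list was -0.01 and -0.03. OAS2, an interferon-induced sensor, rose with both (4.15 and 2.58), but from only 1 and 2 expected counts in the shScr libraries. OAS1 rose with shRBM10#1 (0.62), and OAS3 was not called with either shRNA (0.09 and -0.01). DROSHA and DGCR8, which together cut primary microRNAs, fell with shRBM10#2 (-0.30 and -0.26). The part of these genes in the antisense levels was not tested.

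RBM5-AS1 and EGFR-AS1, named for a relative of RBM10 and for the mutant receptor of these cells, had too few counts to be members (named for their partners after the totals were seen), at a mean of 0.408 and 0.112 TPM. The antisense RNAs just inside the threshold, CHKB-AS1 and TOLLIP-AS1, were not called in any comparison, although TOLLIP, an adaptor of Toll-like receptors 146 nt away from TOLLIP-AS1, fell with both shRNAs (log2 FC -0.59 and -0.25, edgeR FDR = 2.15e-04 and 0.0220). CD68 fell with both shRNAs (-0.33 and -0.42), CDH5 and PECAM1 rose with shRBM10#1 (0.95 and 0.54), VWF and COL1A1 fell with shRBM10#2 (-0.96 and -0.37), and EGFR fell with both (-0.29 and -0.38). The part of these markers in the antisense levels was not tested.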

How the data were processed

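RNA from PC-9 cells labelled shScr, shRBM10#1 or shRBM10#2, with 2 libraries each and 6 in all, was sequenced, and the submitters' processing notes name STAR 2.4, RSEM 1.2.29, edgeR and the build hg19. The authors deposited 1 RSEM table per library, with the expected count, TPM, FPKM and isoform percent of each transcript, and with its length and effective length. The deposited FPKM and isoform percent were not used. Strand handling is not given in the sources used here.

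Expected counts were summed per gene symbol and rounded to whole numbers, because the test needs them, and TPM was summed likewise. Genes kept by filterByExpr (14217) were scaled by TMM (factors 0.979 to 1.02) and tested with edgeR 4.0.16 (R 4.3.3) by the quasi-likelihood F test, with 1 coefficient per condition over all 6 libraries, or 2 groups for the pooled comparison. P-values were adjusted by Benjamini and Hochberg over all genes tested, with calls at an FDR below 0.05. Each SE is the absolute log2 FC divided by the square root of F. Depth was 31953729 to 37557507 expected counts. Scripts were tested on simulated data. DESeq2 1.42.0, other filters and scalings and each library left out were alternatives.

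Pairs were placed with GENCODE 29 (GRCh38) through transcript accessions or, where these failed, gene symbols. Genes with neither were placed by RefSeq spans (GRCh38.p14). The files hold no coordinates, and exons of genes matched by symbol, such as EP300-AS1, may differ from those of the transcripts counted. The members and lists were chosen with earlier results of these data known. Named were up to 25 called members by smallest p, the 5 with the highest TPM, the 3 highest and 3 lowest in ratio to the partner, and the 2 on each side of the count threshold, with their partners. Samples with the same replicate number did not deviate together. Of the list of double-stranded RNA enzymes and sensors, 1 gene is not reported here.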

Additional observations from a re-analysis of the deposited data

Results flagged for a closer look

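For 16 of the named antisense RNAs, among 19 members called there, the effects of the 2 shRNAs against shScr differed by the direct test between them (edgeR FDR below 0.05), and each value is the log2 FC of shRBM10#2 against shRBM10#1. The value was -2.44 for PCNA-AS1, -1.05 for FZD10-AS1, -0.49 for FBXL19-AS1, -0.46 for AGAP2-AS1 and -0.41 for MMP24-AS1, all lower with shRBM10#2. It was 0.32 for OIP5-AS1, 0.46 for HNRNPU-AS1, 0.48 for PITPNA-AS1, 0.57 for TTC28-AS1, 0.67 for SBF2-AS1 and 0.73 for both THAP9-AS1 and NUP50-AS1. The highest were 0.84 for FBXO22-AS1, 0.96 for ZNF674-AS1, 1.16 for RALY-AS1 and 1.21 for TMEM44-AS1. Of these calls, those of PCNA-AS1 and THAP9-AS1 held with each library left out. That of PITPNA-AS1 was lost without shRBM10#1 replicate 1 (0.34) or either shRBM10#2 library (0.51 and 0.46), and that of HNRNPU-AS1 without shRBM10#1 replicate 2 (0.28) or either shRBM10#2 library (0.38 and 0.54). RBM10 itself was lower with shRBM10#2 than with shRBM10#1, and its part in these differences was not tested.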

How the results depend on the processing

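None of the 59 called log2 FC values of named members and partners changed direction, whereas that of PCNA-AS1 with shRBM10#1, which was not called, went from 0.20 to -0.32 without shScr replicate 2 and to -0.06 without shRBM10#1 replicate 1. The split of calls with shRBM10#2 went from 16 higher and 7 lower to 5 and 7 without shScr replicate 2. The members called with shRBM10#1 numbered 20 with no filter on low counts, 11 when every library had to hold 10 counts or more, 3 with an absolute log2 FC above 1 as well, and 2 among members without exon overlap. With shRBM10#2 they numbered 13 with DESeq2, 4 with the added log2 FC criterion and 11 without exon overlap, and between the shRNAs 4 and 7 under the last 2 settings. In the pooled comparison they numbered 2 with DESeq2, 11 with 1 coefficient per condition and 0 without exon overlap (edgeR; 23 of all members had an unadjusted p under 0.05), and RBM10 was called under 1 coefficient per condition (log2 FC -1.10). Leaving out a library gave 3 to 8, 5 to 27, 4 to 20 and 0 to 2 members called in the 4 comparisons, median log2 FC of -0.0971 to -0.0652 with shRBM10#1 and 0.0086 to 0.0687 with shRBM10#2, and median ratio differences of -0.164 to -0.046 and 0.029 to 0.088. A pseudocount of 1 TPM gave a ratio difference of -0.049 with shRBM10#1. The cause of these moves was not tested.

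With the replicate number as a block, 6, 19, 18 and 1 members were called. Numbers are not tied to shared cultures in the labels, and deviations of samples with the same number correlated at -0.00383, -0.0193 and -0.0136, so the block was not used. Of 59 called values of named members and partners, 10 were no longer called with DESeq2 and 4 with the block. The part of depth in the calls was not tested.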
